A study of Homo sapiens with 4 samples.

Results

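Oncofetal genes are active in the fetus, become quiet in most adult tissues and often return in tumours. The 10 genes described here are H19, IGF2, DLK1, PEG10, CDKN1C, IGF2BP1, IGF2BP2, IGF2BP3, GPC3 and LIN28B, out of 57979 genes in the deposited table. They were chosen by symbol, with earlier results of these data known, and the only measured value the choice allows for is the mean level, which would pick 1 row where a symbol repeats. Each of the 10 symbols had 1 row, so no measured value decided a row. The counts of changed members below are therefore descriptions of a chosen list.

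Polyadenylated RNA was sequenced from cells labelled HepG2, a hepatoblastoma-derived liver cancer line, in 2 wild-type libraries and 2 libraries labelled TXNDC9 knockout. TXNDC9 is a thioredoxin domain protein, and the knockout used CRISPR-Cas9 with guides against an early exon, delivered by lentivirus. The culture medium was the same for both groups, and whether a library came from 1 clone or a pool is not given in the sources used here. Nothing in the labels says that the 2 libraries of a group came from separate cultures, so the p-values measure only the spread between these libraries. Values are FPKM (fragments scaled to transcript length and to the library's mapped fragments) made by the authors with Cuffdiff on hg38. The FPKM values of a library summed to 805816 and 971102 in wild-type and to 535973 and 568280 in knockout. No read counts come with them, so the depth is unknown.

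The labelled cell type was checked first. All 8 hepatocyte markers (ALB, APOA1, TTR, SERPINA1, FGB, TF, HNF4A and APOH) were under 1 FPKM in every library, with a highest value of 0.146 and summed levels of 0.184 and 0.284 FPKM in wild-type, against 0.0439 and 0.0741 in knockout, while all 8 housekeeping genes were at 7.86 FPKM or more and 2 of them, ACTB at −1.28 and GAPDH at −1.20 on the log2 scale, were called lower in knockout by the test described below. Neither was called on the TPM scale or after the length and GC correction. AFP, the fetal liver protein by which HepG2 cells are often recognised, was at 0.262 and 0.449 FPKM in wild-type, against 0 and 0.0996 in knockout. Of 10 markers of leukocytes, endothelium, fibroblasts, muscle and glia, 3 were tested and 0 were called; COL1A1, a fibrillar collagen, was at 31.5 and 22.8 FPKM in wild-type, against 20.7 and 17.5 in knockout, and COL3A1 at means of 21.7 against 13.3. Summed over the 10 markers the level was 55.2 and 52.1 FPKM in wild-type, against 38.0 and 35.1 in knockout. At an unadjusted limma p under 0.05, 2 of the 3 tested markers were lower, and 9442 of all 13246 genes tested differed in either direction. The part of these marker levels in the members' values was not tested. The values go against the HepG2 label in all 4 libraries, so the cells are called here only by that label. TXNDC9 itself was at 35.1 and 37.3 FPKM in wild-type, against 21.9 and 27.6 in knockout, a log2 difference of −0.55 ± 0.14 (SE; limma adjusted p = 0.0145), which was not called and became 0.12 after rescaling to TPM. A small CRISPR deletion need not lower RNA, so this value does not check the edit.

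As background, H19 and IGF2 are neighbouring imprinted genes: H19, a long noncoding RNA, is transcribed from the maternal copy, and IGF2, a fetal growth factor, from the paternal copy. CDKN1C, an inhibitor of cyclin-dependent kinases, DLK1, a transmembrane relative of the Notch ligands, and PEG10, a gene derived from a retrotransposon, are imprinted as well. LIN28B blocks the maturation of let-7 microRNAs, and the 3 IGF2BP proteins bind mRNAs, IGF2 mRNA among them. GPC3 is a cell surface glypican found in fetal liver and in many liver cancers.

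Short sequences link several of these genes, and they are shown because they identify the products and targets behind the names. H19 is the host of miR-675 (chr11:1996800-1996822 for the 5p arm, minus strand, GRCh38.p14), which lies in exon 1 of an H19 transcript of 2326 nt but in no exon of the canonical 1106 nt transcript of GENCODE release 44. The let-7 microRNAs, held back by LIN28B, share 1 seed. In these RefSeq mature sequences the seed (bases 2 to 8) is in capitals.
hsa-miR-675-5p: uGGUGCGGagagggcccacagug
hsa-miR-675-3p: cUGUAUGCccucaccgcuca
hsa-let-7a-5p: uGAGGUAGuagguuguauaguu
hsa-let-7b-5p: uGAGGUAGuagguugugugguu

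The match to the let-7 seed, CTACCTC, was searched for on the sense strand of the 3′ UTR of each canonical transcript. IGF2BP1 held 4 matches in 6701 nt, LIN28B 4 in 4549 nt, IGF2BP2 1 in 2401 nt and IGF2BP3 1 in 2153 nt. IGF2 held 0 in 3870 nt, DLK1 0 in 3328 nt, CDKN1C 0 in 703 nt and GPC3 0 in 379 nt. PEG10 also held 0, but the 3′ UTR of its canonical transcript has only 16 nt, so almost nothing was searched. Of 11080 tested genes with a 3′ UTR, whose median length was 1302.5 nt, 10.9% held 1 or more and 0.171% held 3 or more, so IGF2BP1 stands among few genes by this count. A match describes the sequence and was not tested as a site. The windows below (hg38) show the matches in the 3 IGF2BP genes, in capitals.
IGF2BP1, chr17:49051061-49051088, plus strand: tgtgtgcgaagtaaaCTACCTCaaggta
IGF2BP1, chr17:49053698-49053725, plus strand: cagcagtgctagtaaCTACCTCacagag
IGF2BP1, chr17:49054352-49054379, plus strand: gtataaatggattaaCTACCTCaatcct
IGF2BP1, chr17:49054997-49055024, plus strand: tcacttttgttttatCTACCTCttagca
IGF2BP2, chr3:185644215-185644242, minus strand: aacacacagaagaagCTACCTCaggtgt
IGF2BP3, chr7:23311790-23311817, minus strand: tgcatttttactcaaCTACCTCaggtat

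Levels separated the 10 genes into those well above and those near the lower end of the scale. H19 was the most abundant by far, followed by PEG10. In wild-type, IGF2BP3 and CDKN1C came next with overlapping values, then IGF2BP1 and IGF2BP2. In knockout the order after PEG10 was IGF2BP3, IGF2BP1, IGF2BP2 and CDKN1C, with no overlap between neighbours, so CDKN1C moved from beside IGF2BP3 to the last place. IGF2, LIN28B, DLK1 and GPC3 were under 0.2 FPKM in every library.

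**Figure D1:**
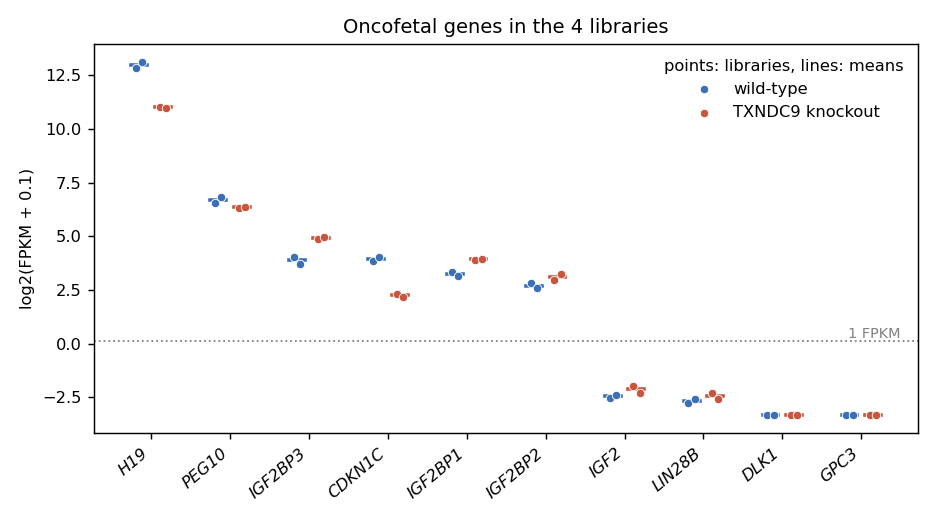
Levels of the 10 genes on the scale log2(FPKM + 0.1), with 1 point for each library and a line for the mean of the 2 libraries of a group. H19 and CDKN1C lie lower and IGF2BP3 higher in knockout, and 4 genes lie below the dotted line at 1 FPKM.

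Genes with a mean above 1 FPKM were compared on log2(FPKM + 0.1) with limma, and calls needed an adjusted p (Benjamini-Hochberg) under 0.01 together with a change of at least 2-fold. Of the 10 members, 6 passed this filter on level, and 3 were called: H19 and CDKN1C fell and IGF2BP3 rose. Of the 13246 genes tested, 29.5% were called, 15.3% lower and 14.2% higher, so calls were common throughout. In all 6 tested members the knockout and wild-type values did not overlap, 3 below and 3 above. Over all genes tested, both knockout values lay below both wild-type values in 45.9% and above them in 40.1%. The median log2 difference of all tested genes was −0.09. It became 0.59 when each library was rescaled to the same sum (TPM), a scale on which 36.4% of genes were called and 90.7% of the calls were higher, against 48.3% on the deposited scale and 35.8% after centring on the median. With 1 of the knockout libraries left out, no gene was called, and the spread within a group came from the wild-type pair alone. With 1 of the wild-type libraries left out it came from the knockout pair, and genes were called there. The calls therefore depended on which libraries were kept. The log2 differences of the called members without each knockout library are given below.

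**Figure D2:**
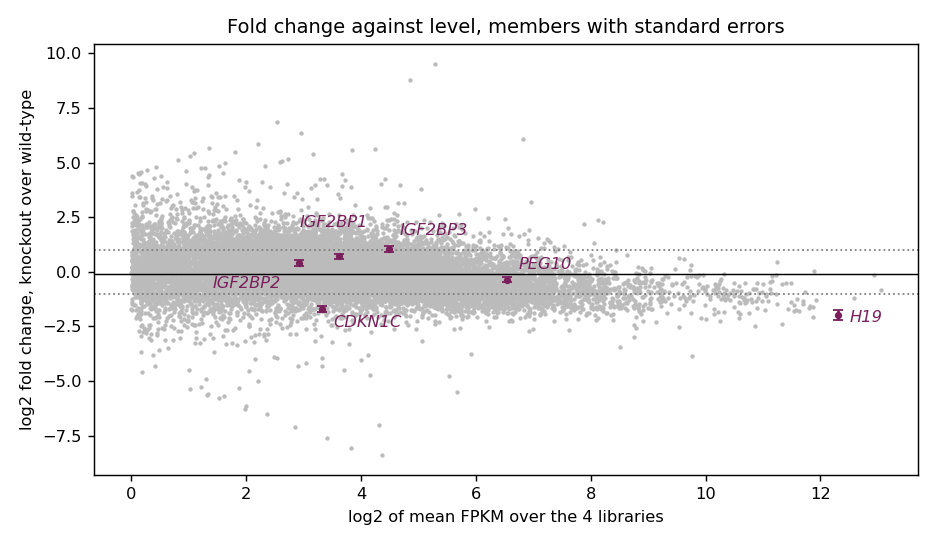
Log2 fold change of knockout over wild-type against log2 mean FPKM for the 13246 genes tested (grey), with the 6 tested members and their standard errors in purple. The dotted lines mark a 2-fold change and the solid line the median of −0.09. H19 stands at the high end of level with a change of −1.98.

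H19 (ENSG00000130600, chr11:1995166-2004552, minus strand) was at 7278 and 8972 FPKM in wild-type, against 2069 and 2036 in knockout. Both knockout values lay far below both wild-type values, and the knockout pair was close together. The mean was 8125 ± 1198 FPKM (SD, n = 2) in wild-type and 2052 ± 23.4 in knockout, a 3.96-fold lower level. The log2 difference was −1.98 ± 0.24 (SE; 95% interval −2.56 to −1.39; limma adjusted p = 0.00111). H19 was the third and the fourth most abundant gene of the wild-type libraries, and in knockout it ranked 10 and 13. It made up 0.903% and 0.924% of the summed FPKM in wild-type and 0.386% and 0.358% in knockout. On the TPM scale its log2 difference was −1.30. H19 lost its call when genes of any level were included (limma adjusted p = 0.0368). Without knockout replicate 1 or 2 its log2 difference was −1.99 or −1.97. The mature miR-675 was not measured by these libraries.

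IGF2 (ENSG00000167244, chr11:2129112-2158391, minus strand) was at 0.0717 and 0.0945 FPKM in wild-type, against 0.158 and 0.105 in knockout. The knockout values were the higher ones, but all were too low to be tested, so no change is stated. IGF2 encodes the ligand of the receptor IGF1R. The transcript IGF2-AS and the microRNA gene MIR483 within the locus were listed at 0 in all 4 libraries. A noncoding gene that overlaps IGF2 on the same strand, ENSG00000240801, was at 0.400 and 0.787 FPKM in wild-type, against 0 and 0 in knockout. It was also too low to be tested. A ratio of H19 to IGF2 is not given because of the low IGF2 values.

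CDKN1C (ENSG00000129757, chr11:2883213-2885775, minus strand) lies on the same chromosome arm as H19 and IGF2. It was at 14.4 and 16.3 FPKM in wild-type, against 4.83 and 4.48 in knockout, with no overlap. The log2 difference was −1.70 ± 0.12 (SE; limma adjusted p = 5.12e-04). On the TPM scale it was −1.03. Without knockout replicate 1 or 2 it was −1.75 or −1.64.

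PEG10 (ENSG00000242265, chr7:94656325-94669695, plus strand) was at 94.7 and 115.6 FPKM in wild-type, against 80.3 and 83.3 in knockout. The groups did not overlap, but the log2 difference of −0.35 ± 0.13 (SE; limma adjusted p = 0.0558) did not pass, and it turned to 0.33 on the TPM scale. PEG10 overlaps SGCE, its imprinted neighbour on the opposite strand, which was at 9.77 and 9.52 against 8.66 and 8.90 FPKM. DLK1 (chr14:100725705-100738224, plus strand) was listed at 0 in all 4 libraries. MEG3, the maternally expressed noncoding RNA beside DLK1, was at 0.0132 FPKM in 1 wild-type library and at 0 in the others.

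IGF2BP3 (ENSG00000136231, chr7:23310209-23470491, minus strand) was at 16.5 and 12.9 FPKM in wild-type, against 29.3 and 31.1 in knockout. Both knockout values were above both wild-type values. The log2 difference was 1.05 ± 0.14 (SE; limma adjusted p = 0.00174), just past a 2-fold change. It fell to 0.90 after centring on the median and to 0.87 without wild-type replicate 2, and neither value was called. Without knockout replicate 1 or 2 it was 1.09 or 1.003. IGF2BP3 overlaps MALSU1, a mitochondrial ribosome factor on the opposite strand, which was at 159 and 183 FPKM in wild-type, against 80.4 and 75.9 in knockout. The use of strand in counting is not given in the sources used here, so reads in the shared stretch cannot be told apart.

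IGF2BP1 (ENSG00000159217, chr17:48997385-49056145, plus strand) was at 9.93 and 8.66 FPKM in wild-type, against 15.04 and 15.49 in knockout. The log2 difference of 0.71 ± 0.11 (SE; 95% interval 0.43 to 0.996; limma adjusted p = 0.00285) was under 2-fold and not called. IGF2BP2 (ENSG00000073792, chr3:185643130-185825042, minus strand) was at 7.03 and 5.91 FPKM against 7.75 and 9.45, a log2 difference of 0.40 ± 0.15 (SE; limma adjusted p = 0.0599). On the TPM scale both were called, at 1.39 and 1.08. The 3 IGF2BP genes together summed to 33.5 and 27.4 FPKM in wild-type and to 52.1 and 56.1 in knockout. IGF2BP3 made up 49.4% and 46.9% of that sum in wild-type and 56.3% and 55.5% in knockout, and IGF2BP2 21.0% and 21.5% against 14.9% and 16.9%. With 2 libraries in each group, an exact permutation test of a share cannot go below p = 0.333, so none was run.

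LIN28B (chr6:104936616-105083332, plus strand) was at 0.0460 and 0.0708 FPKM in wild-type, against 0.106 and 0.0688 in knockout, with overlapping groups. GPC3, on the X chromosome, was listed at 0 in all 4 libraries, although HepG2 cells are known for it.

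Fold change moved with transcript length and GC content across all genes. Spearman's rho across genes, which share their libraries and are not independent, was 0.495 between log2 difference and canonical transcript length and −0.462 with GC content. Genes called lower had a median of 1433 nt and 57.9% GC, genes called higher 5546 nt and 42.2% GC, and all tested genes 2866.5 nt and 48.5% GC. The canonical H19 transcript has 1106 nt and 58.0% GC, and that of CDKN1C 1773 nt and 62.9% GC. After a curve on length and GC content was removed from each library, 13.8% of 13112 genes were called. H19 remained called at −1.04 (limma adjusted p = 0.00538), at −1.19 with its transcript of 2326 nt, while CDKN1C at −0.76 and IGF2BP3 at 0.46 were not called. IGF2BP1 and IGF2BP2 came to 0.01 and 0.09. GENCODE's canonical transcripts need not be the models behind the FPKM values, and the part of length and GC content in the members' differences was not tested.

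**Figure D3:**
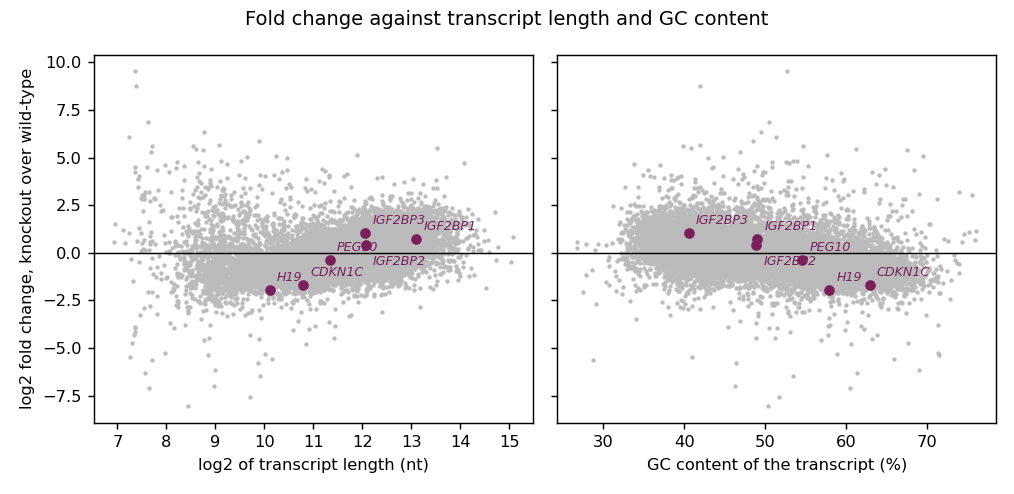
Log2 fold change of each tested gene against the log2 length (left) and the GC content (right) of its canonical transcript, with the 6 tested members in purple. H19 and CDKN1C lie among short and GC-rich transcripts with lower values, and the IGF2BP genes among longer ones with higher values.

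**Figure D4:**
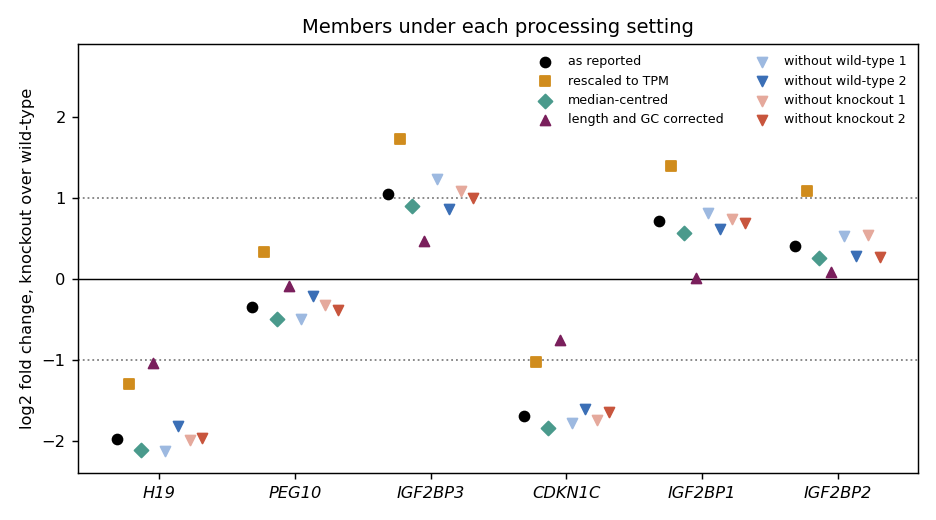
Log2 fold change of the 6 tested members as reported, under 2 other scalings, after the length and GC correction, and without each library in turn. The dotted lines mark a 2-fold change. H19 and CDKN1C stay below 0 and the IGF2BP genes above it, while PEG10 changes side on the TPM scale.

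Genes that work with the members were read from lists, beside the 29.5% called over all genes and the median of −0.09. In the IGF pathway 13 of 24 genes were tested, 4 were called lower and 3 higher, and the median log2 difference was −0.28. On the TPM scale the median turned to 0.40, with 1 called lower and 6 higher. After the length and GC correction it was 0.27, with 2 called lower and 0 higher. GRB10, an imprinted adaptor that restrains insulin and IGF receptor signalling, fell by 1.73 on the log2 scale, from 12.4 and 14.4 to 4.39 and 3.55 FPKM. IGFBP6, a binding protein that prefers IGF2, fell by 1.48, and IGFBP3 and IGFBP4 fell by 1.12 and 1.11. On the TPM scale IGFBP6 (−0.81), IGFBP3 (−0.44) and IGFBP4 (−0.46) were not called. The receptors moved the other way, although IGF2R lost its call without wild-type replicate 2 (0.76) and after centring on the median (0.94). IGF1R rose by 1.18, INSR by 1.28 and IGF2R, which clears IGF2 from the cell surface, by 1.09. None of these 3 receptors was called after the length and GC correction, whereas GRB10 and IGFBP3 were. IGFBP3, IGFBP4 and the receptors were named after their values were seen.

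Among 40 imprinted genes, 23 were tested, 4 were called lower and 6 higher, and the median was 0.45. On the TPM scale the median was 1.11, with 1 called lower and 12 higher. The length and GC correction left 1 called lower and 1 higher. ZDBF2, a paternally expressed zinc finger gene, was at 0.487 and 0.411 FPKM in wild-type, against 1.96 and 1.73 in knockout. It passed the filter of 1 FPKM only through the knockout group, so its call gives no support, and its log2 difference of 1.82 became 0.65 after the correction. GRB10 fell as given above. PHLDA2, a placental growth restrainer that lies near CDKN1C, fell by 1.497, from 61.9 and 98.2 to 27.6 and 27.5 FPKM, but was not called on the TPM scale (−0.82) or after the correction (−0.45). PPP1R9A, also called higher and named after its values were seen, was at 0.882 and 0.898 FPKM in wild-type, against 2.72 and 2.62 in knockout. It passed the filter only through the knockout group, so its call gives no support either. Calls in both directions were common over all genes tested, at 15.3% lower and 14.2% higher. Of the 40 imprinted genes, 9 were listed at 0 in all libraries. Of 14 imprint maintenance and insulator factors 11 were tested, 1 was called lower and 4 higher, with a median of 0.67. The median became 0.19 with 1 call after the correction, and 1.33 with 1 called lower and 6 higher on the TPM scale. TRIM28, the corepressor that keeps imprints methylated, fell by 2.08, from 615 and 814 to 163 and 171 FPKM. PLAG1, a zinc finger activator of IGF2, was at 0.611 and 0.534 FPKM in wild-type, against 2.80 and 2.15 in knockout. It too passed the filter only through the knockout group, and its log2 difference of 1.93 became 0.84 after the correction, where it was not called. CTCF, the insulator protein that binds between IGF2 and H19, differed by 0.06 (limma adjusted p = 0.655), with a sign that changed between settings, and DNMT1, the maintenance methyltransferase, by −0.16 (adjusted p = 0.203), which became 0.52 on the TPM scale.

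On the LIN28 and let-7 axis 17 of 22 genes were tested, 1 was called lower and 4 higher, with a median of 0.76. The median became 0.12 with 1 call after the length and GC correction and 1.44 with 10 calls on the TPM scale. DROSHA, which cuts primary microRNAs, fell by 1.57, from 132 and 177 to 50.5 and 52.5 FPKM. DICER1, which cuts the precursors, rose by 1.54, from 4.39 and 4.75 to 13.0 and 14.0 FPKM. DROSHA was called after the correction but not on the TPM scale (−0.89), and DICER1 on the TPM scale but not after the correction (0.43). LIN28A was listed at 0, and HMGA2, a let-7 target, had a mean of 1.05 FPKM in wild-type and 0.392 in knockout and was not tested.

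Of 13 fetal and progenitor markers of liver 7 were tested, and limma called 3 lower and 0 higher. The median of −0.38 turned to 0.30 on the TPM scale. At an unadjusted limma p under 0.05, 3 were higher and 4 lower, and 9442 of all 13246 genes tested differed in either direction. KRT7, a bile duct keratin, fell by 2.49, from 2294 and 4071 to 526 and 559 FPKM, and NOTUM, a secreted Wnt inhibitor, by 1.29. EPCAM was listed at 0. Of 4 repressors of fetal liver genes 2 were tested and 1, ZFHX3, rose by 1.24. ZFHX3 was not called after the length and GC correction (0.70) or with a pseudocount of 1 (0.93). ZBTB20 and ZHX2, which silence AFP and in part H19 after birth in mice, were not tested.

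All 13 protein partners of IGF2BP and m6A factors were tested, 1 was called lower and 1 higher, with a median of 0.13 that turned to −0.16 after the length and GC correction. PABPC1, the poly(A) binding protein, fell by 1.08, and METTL14, a subunit of the m6A methyltransferase, rose by 1.14. PABPC1 lost its call on the TPM scale (−0.40) and without wild-type replicate 2 (−0.92), and METTL14 after centring on the median (0.997) and after the length and GC correction (0.17). YBX1 differed by −0.86 and was under 2-fold. In the glypican family with its heparan sulphate enzymes 5 of 10 were tested and 2 were called higher, with a median of 0.61. GPC5 rose by 1.71, from 6.76 and 5.63 to a mean of 20.4 ± 2.04 FPKM (SD), and NDST1, a heparan sulphate sulphotransferase, by 1.25. NDST1 was not called after the length and GC correction (0.99). GPC4 was listed at 0. Of 10 Notch ligands and receptors 4 were tested and 1, NOTCH2, rose by 1.72, with a median of 0.06. Of 7 CIP/KIP inhibitors and partners, relatives of CDKN1C and the cyclins and kinases they bind, 7 were tested. Limma called 0 of them, with a median of 0.47. An unadjusted limma p under 0.05 was found for 5 of the 7, and for 9442 of all 13246 genes tested. On the TPM scale 4 were called higher, and after the length and GC correction 1, CDKN1A at 1.17, named after its value was seen.

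Housekeeping genes aside, the text above gives the difference of 21 called list genes. Of these, 14 were also called on the TPM scale and 8 after the length and GC correction. Over all genes, 36.4% and 13.8% were called in these settings. These shares include genes not called on the deposited scale, so they are not a like background for the 21. The 21 and the 14 include ZDBF2 and PLAG1, which passed the filter only through the knockout group. Most were named for large changes in these same data, so the counts are descriptions and give no support. GRB10, TRIM28, KRT7, GPC5 and NOTCH2 were called in both, and IGFBP6, IGFBP4, PHLDA2 and NOTUM in neither.

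**Figure D5:**
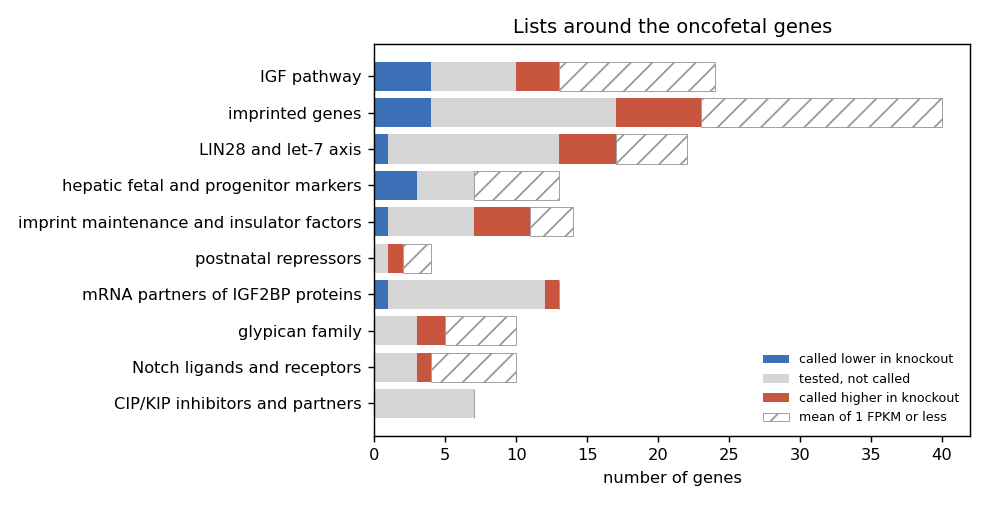
Number of genes in each list called lower (blue), not called (grey) and called higher (red) in knockout, and the number with a mean of 1 FPKM or less (hatched), which were not tested. The imprinted gene list holds 4 lower and 6 higher, and of the latter ZDBF2 and PPP1R9A passed the filter only through the knockout group.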

How the data were processed

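Reads of 4 libraries were mapped by the authors to hg38 with TopHat2 and an Ensembl annotation, and the deposited values are FPKM per gene and library from Cuffdiff (tools per the submitters' processing notes; versions and strand use not given in the sources used here). The table also holds condition averages, fold changes, p-values and q-values of the authors' own comparison, which were not used. Of 231916 lines 57979 held values; identifiers, which were out of register with the symbols, were put back in order, and 56935 were in GENCODE release 44, the source of positions, lengths, GC content and 3′ UTRs. No step equal to 1 read was found: at most 4.53% of genes under 0.03 FPKM shared 1 log2 ratio between libraries.

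Groups came from the labels. Genes with a mean above 1 FPKM were compared on log2(FPKM + 0.1), which understates changes of low genes, with limma 3.58.1 in R 4.3.3 (trend in the prior variance, Benjamini-Hochberg over 13246 genes). The members and lists were chosen with earlier results of these data known; the housekeeping list was added later. Named are all members, the 2 called genes of each list with the largest change, and up to 3 further genes of a list whose role a sentence needs. The IGF pathway passage, PPP1R9A and CDKN1A go beyond this, as stated there. Alternatives were pseudocounts of 0.01 and 1, no filter or a mean above 5 FPKM, an adjusted p under 0.05, TPM, median centring, no trend, the replicate block, a loess correction (span 0.3) for length and GC content, and each library left out. The fit was tested on simulated data; with spread drawn as limma estimates it, most changed genes were recovered, and with unmoderated spread shuffled over genes, fewer than that. Python 3.11.15, pandas 2.3.3, numpy 2.4.6 and matplotlib 3.10.9 were used.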

Additional observations from a re-analysis of the deposited data

How the results depend on the processing

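All genes gave 2021 lower and 1885 higher calls, the members 3 and the 99 tested genes of the lists 33. On the TPM scale these were 447, 4380, 5 and 52. After the length and GC correction they were 969, 840, 1 and 11, and with the replicate block as well 976, 768, 1 and 11. With a mean above 5 FPKM, 1220 genes were called higher, and with no filter 19 list genes were called. Without each library in turn, lower calls ranged from 0 to 2633, higher calls from 0 to 2136, members called from 0 to 3 and list genes called from 0 to 32. With a wild-type library left out genes were called, so calls depended on which library was left out. The zeros came from leaving out either knockout library, which leaves 1 assumed to vary like the wild-type pair. In those fits limma's unadjusted p was under 0.05 for 7129 genes without knockout replicate 1 and for 7307 without replicate 2, with 3 of the 6 tested members in each. PEG10 turned to 0.33 and TXNDC9 to 0.12 on the TPM scale. The cause was not tested. Of 38 tested genes whose difference the text gives, 37 kept their direction without each library in turn. CTCF, at 0.06, turned to −0.01 without wild-type replicate 2 and to −0.03 without knockout replicate 2. Where the groups do not overlap, leaving out a library cannot change the sign. Both knockout values lay below both wild-type values in 45.9% of all tested genes and above them in 40.1%, so this count gives no support. With the longer H19 transcript, an alternative added after the data were seen, 1 member was called. Summing rows of a repeated symbol changed nothing, since no member repeats.

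Same-numbered libraries deviated with a correlation of −0.09, so the numbers were not taken to pair them; with the replicate block, 2146 genes were called lower and 1960 higher, and 3 members were called. Without read counts, what depth limits cannot be stated.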

Other observations

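The tested genes whose values followed H19 most closely, by Euclidean distance of centred log2(FPKM + 0.1) values over the 4 libraries, were GPX4, CITF22-1A6.3 and WDR83. GPX4, which reduces lipid peroxides, was at 457 and 581 FPKM in wild-type and 130 and 134 in knockout, a distance of 0.0558. CITF22-1A6.3 was at a distance of 0.0636 and WDR83 at 0.0806. For IGF2, whose own values were all under 0.2 FPKM, the nearest were HIP1 at 0.0555, ZNF789 at 0.0766 and STARD8 at 0.0785. The IGF2 values lie near the added 0.1, and among 13246 genes some lie close to any small pattern. These neighbours are therefore not read as genes that vary with IGF2.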
